A study of Mus musculus with 2 samples.

Results

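Interferon-high macrophages are tumour macrophages that were chosen cell by cell by their RNA of 4 antiviral genes: Ifnb1, which encodes interferon beta, Ifih1, which encodes the double-stranded RNA sensor MDA5, and the interferon-inducible genes Oasl1 and Ifit2. A cell was gated as a macrophage when it had at least 20 Lyz2 unique molecular identifiers (UMIs, single captured RNA molecules) and at least 5 UMIs of C1qa, C1qb and C1qc together per 10000 UMIs, at most 1 UMI of Cd3d, Cd3e and Cd3g, and at most 2 UMIs of the tumour markers Hmga2, Tnfrsf12a and Igf2bp2. A gated cell that also passed a further limit of the rule was called interferon-high when the 4 antiviral genes reached at least 5 UMIs per 10000. The rule gave 2747 such cells (1033 control, 1714 knockdown) out of 6679 gated macrophages and 24208 kept cells. Gated cells that passed the same limit and stayed below that level were the interferon-low macrophages they were compared with (1225 control, 1072 knockdown), and gated cells beyond the limit were in neither group.

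The cells came from 2 mouse tumours labelled as xenografts of LLC, the Lewis lung carcinoma line, profiled by droplet single-cell RNA sequencing. One tumour was the labelled control and the other carried a short hairpin RNA against Gfpt2, which encodes an enzyme of the hexosamine pathway, and the series asked about its effect on the tumour immune environment. The labels give neither the strain of the mice nor what the control vector carried. With 1 library per group no difference between the libraries has a replicate check, no test was run, and every interval below is a 95% interval that covers counting error only.

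Type I interferons are secreted after sensors of nucleic acids activate kinases that switch on interferon regulatory factors and NF-kB. They act through a receptor and STAT factors on the secreting cell and its neighbours, and induce a large set of antiviral genes and chemokines that attract T cells and natural killer cells. Macrophages in tumours can hold this program beside wound-healing, lipid-handling and hypoxic programs.

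Interferon-induced genes share short promoter elements, and the promoters of 5 genes on which the results turn are shown here because their motifs differ. The 250 bases before each gene's start were taken from RefSeq (GRCm38.p6) and searched on both strands for the core of the interferon-stimulated response element, searched as GAAA, any 2 bases and GAAA, and for an NF-kB core, searched as GGGA, any 4 bases and CC. Capitals mark the matches. In Ifnb1 alone, capitals also mark the shorter element AANNGAAA, a letter pattern that every match of the longer core contains and that was added after the sequences were seen.
Ifnb1 promoter, 250 bases, chr4:88522795-88523044, minus strand: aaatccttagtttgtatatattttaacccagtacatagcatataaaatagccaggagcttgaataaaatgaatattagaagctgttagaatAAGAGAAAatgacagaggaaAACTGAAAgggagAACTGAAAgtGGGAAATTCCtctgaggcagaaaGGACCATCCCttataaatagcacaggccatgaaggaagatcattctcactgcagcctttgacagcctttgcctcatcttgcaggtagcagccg
Cxcl10 promoter, 250 bases, chr5:92348890-92349139, minus strand: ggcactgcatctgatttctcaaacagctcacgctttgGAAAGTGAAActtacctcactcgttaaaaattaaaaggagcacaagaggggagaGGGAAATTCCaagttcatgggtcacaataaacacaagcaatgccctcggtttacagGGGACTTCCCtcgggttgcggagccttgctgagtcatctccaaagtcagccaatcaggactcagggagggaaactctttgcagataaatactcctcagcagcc
Rsad2 promoter, 250 bases, chr12:26456453-26456702, minus strand: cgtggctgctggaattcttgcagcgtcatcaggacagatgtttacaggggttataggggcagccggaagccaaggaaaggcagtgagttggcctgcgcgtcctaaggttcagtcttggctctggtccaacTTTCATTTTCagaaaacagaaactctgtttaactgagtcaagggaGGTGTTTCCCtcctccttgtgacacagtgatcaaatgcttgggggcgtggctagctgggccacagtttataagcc
Isg15 promoter, 250 bases, chr4:156200819-156201068, minus strand: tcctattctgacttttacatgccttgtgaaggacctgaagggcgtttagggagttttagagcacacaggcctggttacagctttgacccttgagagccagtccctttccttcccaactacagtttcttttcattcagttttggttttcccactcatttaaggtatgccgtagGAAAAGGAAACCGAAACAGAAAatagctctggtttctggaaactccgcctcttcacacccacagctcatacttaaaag
Ifit1 promoter, 250 bases, chr19:34640639-34640888, plus strand: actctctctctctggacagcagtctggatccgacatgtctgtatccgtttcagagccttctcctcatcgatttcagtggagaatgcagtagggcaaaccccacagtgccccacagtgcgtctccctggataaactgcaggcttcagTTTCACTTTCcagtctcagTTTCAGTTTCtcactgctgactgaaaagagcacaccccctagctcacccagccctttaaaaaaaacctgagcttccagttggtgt
The longer core was found in the promoters of 7 of the 16 genes that matched the table among the 20 most raised in interferon-high macrophages: Ifit1, Ifit3, Ifit3b, Isg15, Rsad2, Cxcl10 and Ppp1r15a. Among all genes of the table, 936 of 27025 (3.46%) held it. The NF-kB core was found in 4 of the same 16 genes (Cxcl10, Rsad2, Acod1 and Slc23a2) and in 19.7% of all genes. The windows of Ifit3 and Ifit3b are largely the same sequence, so they are not separate cases. The Ifnb1 window held 2 matches to the NF-kB core and 3 to AANNGAAA, and none to the longer core. AANNGAAA was in 10 of the same 16 genes and in 23.9% of all genes. None of the 4 rule genes held the longer core in this window. Isg15 held 3 overlapping longer cores, Ifit1 held 2, and Rsad2 and Cxcl10 held 1 each. A match describes letters in this window and does not show that a factor binds there.

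The depth of the libraries and the identity of the cells were examined next. The control library held 165824226 UMIs in 11977 barcodes and the knockdown library 138402860 UMIs in 12853 barcodes, and 37 barcode sequences occurred in both. Interferon-high macrophages had a median of 5489 UMIs in control cells and 4016 in the knockdown library, and interferon-low macrophages a median of 5326 and 3773.5. Gfpt2 had 295 UMIs (1.78 CPM, counts scaled to 1000000 UMIs) in the kept control cells and 81 (0.586 CPM) in the kept knockdown cells. No interferon-high macrophage in either library had a Gfpt2 UMI, which allows shares of cells with a UMI of up to 0.290% (control) and 0.175% (knockdown); at this depth and level a cell that expresses the gene can show no UMI, so these are not limits on expressing cells.

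The macrophage label was checked against marker genes that the rule did not use. The 8 macrophage markers (among them Adgre1, Csf1r, Cd68 and Mertk) summed to 5462 CPM in control and 5215 CPM in knockdown interferon-high macrophages, against 151 and 139 CPM in T cells gated by Cd3 genes, and all 8 were detected. Of the 7 T cell markers, which include the 3 gated Cd3 genes, the sum was 7.79 and 17.4 CPM, against 4299 and 4909 CPM in those T cells. The 8 dendritic cell markers summed to 26.0 and 33.5 CPM, with Siglech at 0 in both libraries and Cd209a at 0 in the control library. Markers of natural killer cells, neutrophils and B cells summed to between 12.3 and 45.0 CPM per list and library, with Klrb1c, Retnlg and Cxcr2 at 0 in the knockdown library.

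Markers of tumour cells and stroma were present at low levels and were higher in the knockdown library. The 3 tumour markers, capped by the gate, summed to 35.8 CPM in control and 52.9 CPM in knockdown interferon-high macrophages, against 559 and 567 CPM in cells gated as tumour cells. At least 1 of their UMIs was found in 18.9% of control and 19.8% of knockdown members. The 6 fibroblast markers summed to 340.1 and 484 CPM, almost all of it Col3a1 and Dcn, with Lum at 0 in the control library. They summed to 1932 and 2201 CPM in cells gated as tumour cells, so these genes do not separate stroma from tumour RNA here. The 4 endothelial markers summed to 20.7 and 42.0 CPM.

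The 4 rule genes describe how the cells were chosen and carry no test. Ifih1 had 823 CPM in control and 900 CPM in knockdown members, Oasl1 533 and 612 CPM, Ifit2 483 and 655 CPM, and Ifnb1 82.0 and 130 CPM. The summed rule genes had a median of 14.8 UMIs per 10000 in control cells and 18.4 in the knockdown library, with quartiles of 8.77 and 25.7 in the former and 10.2 and 32.3 in the latter. The boundary cut through a continuous range: 85 control and 101 knockdown cells lay just inside it, at 5 to 6 UMIs per 10000, and 97 and 106 cells lay just outside, at 4 to 5. A single rule UMI sufficed in 41 control members (3.97%) and 101 knockdown members (5.89%), while 72.8% and 66.9% had 5 or more. All 4 genes were detected together in 101 control members (9.78%) and 224 knockdown members (13.1%).

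Interferon-high macrophages were a larger share of the gated macrophages in the knockdown library. They made up 1033 of 3286 gated cells in the control library (31.4%, exact Clopper-Pearson interval 29.9 to 33.1%) and 1714 of 3393 in the knockdown library (50.5%, 48.8 to 52.2%), a ratio of 1.61 (1.48 to 1.75). Gated macrophages as a whole were 28.2% and 27.0% of kept cells. Interferon-low macrophages were 37.3% of control and 31.6% of knockdown gated cells. Shares of 1 gate depend on each other, so 1 share cannot be higher without others being lower.

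The share was also larger in the knockdown library under other denominators. Among interferon-high and interferon-low macrophages alone, members were 45.7% of control and 61.5% of knockdown cells. The same level of rule genes was reached by 8.81% of control and 12.4% of knockdown cells outside the macrophage gate, a ratio of 1.41 (1.24 to 1.59). Among these it was reached by 17.7% of control and 18.8% of knockdown T cells, at median depths of 3051 and 2795 UMIs. Of tumour cells 1.13% and 2.67% reached it, at 21174 and 16231 UMIs. With every cell thinned to 3000 UMIs, which left out 419 control and 1049 knockdown gated cells, the shares were 32.6% and 47.8%, a ratio of 1.47. The gate then held 3160 control and 2688 knockdown cells, some of them not gated before, so depth and gate membership changed together. No replicate tumour shows how far such shares vary between mice.

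**Figure D1:**
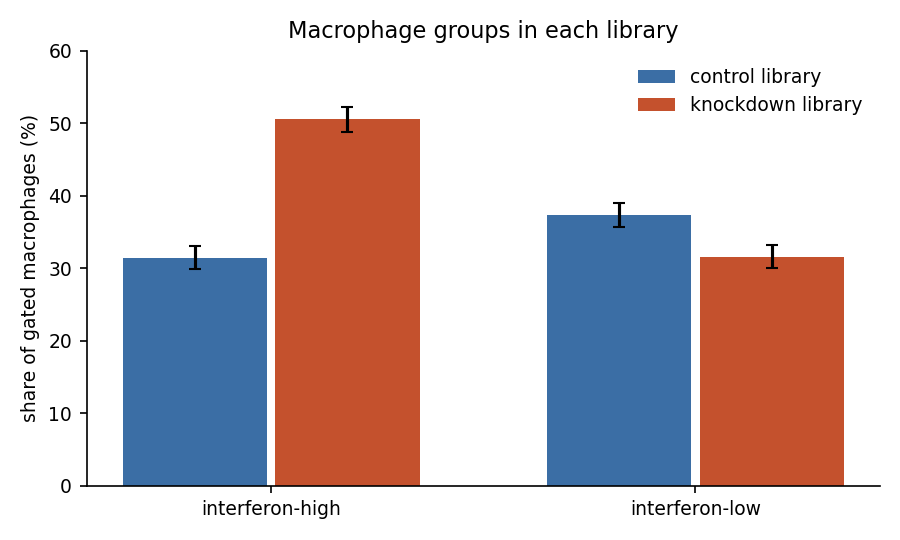
Share of gated macrophages (percent, vertical axis) in the interferon-high and interferon-low groups, with the control library in blue and the knockdown library in red; error bars are exact 95% Clopper-Pearson intervals, which cover counting error only. The interferon-high group takes 31.4% of control and 50.5% of knockdown gated cells, and the interferon-low group 37.3% and 31.6%.

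Among the interferon ligands, Ifnb1 and Ifna2 were the type I genes with more than 2 UMIs in the members. Ifnb1 was detected in 153 of 1033 control members (14.8%, 12.7 to 17.1%) and 354 of 1714 knockdown members (20.7%, 18.8 to 22.6%), against 1.14% and 1.87% of interferon-low macrophages and 0.619% and 0.232% of T cells. Members held 495 of the 881 Ifnb1 UMIs of the control library (56.2%) and 996 of the 1635 of the knockdown library (60.9%), while they held 3.65% and 5.54% of all UMIs. Cells outside the macrophage gate held 221 (25.1%) and 540 (33.0%) of these UMIs, in 115 and 249 cells. As a rule gene, Ifnb1 had to be enriched in the members. A single Ifnb1 UMI was all that was seen in 56 of the 153 control members and 149 of the 354 knockdown members. The fullest members had 15 and 18 UMIs, and the fullest cells outside the gate 13 and 21.

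Ifna2, an interferon alpha gene that the rule did not use, was found in few cells. It had 26 UMIs in 15 control members and 49 UMIs in 21 knockdown members, and none in interferon-low macrophages of either library. Against the limit that 0 of their summed UMIs allows (3 counts over the group), Ifna2 was at least 10.7-fold higher in control and at least 10.1-fold higher in knockdown members. Of the 15 control cells 5 also held Ifnb1, and of the 21 knockdown cells 9 did, and the 3 fullest cells held 9 of the 26 and 20 of the 49 UMIs. Interferon alpha genes are near-identical copies, so how their reads were divided among them is uncertain. Ifna4 had 2 UMIs and 1 UMI in the members, and the other interferon alpha genes of the list had 0. Ifng, the type II interferon gene, had 10 and 20 UMIs, 0.520% and 0.983% of its UMIs in the 2 libraries.

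The contrast of interferon-high with interferon-low macrophages rests on the cells' own counts and is a description. A gene was counted as different when it was over 2-fold higher or lower in both libraries, among genes with at least 100 UMIs in 1 of the groups. Of 7153 genes, 45 were higher (0.629%) and 5 were lower (0.0699%), and the median gene had a log2 ratio of -0.05 in each library. The 45 include the 4 rule genes, whose difference the choice of cells fixed. Of the 40 listed antiviral interferon-stimulated genes, 38 had enough UMIs and 12 were higher in both libraries, 2 of them the rule genes Oasl1 and Ifit2. Their median log2 ratios were 0.75 (control) and 0.68 (knockdown).

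Rsad2, which encodes viperin, had 548 CPM in interferon-high and 89.7 CPM in interferon-low macrophages of the control library, and 656 and 115 CPM in the knockdown library. That is a log2 ratio of 2.61 (2.49 to 2.73) and 2.51 (2.39 to 2.64). Its promoter carries 1 longer core and 1 NF-kB core. Cmpk2, a mitochondrial nucleotide kinase gene that is the next gene to Rsad2 in the genome, had log2 ratios of 1.60 and 2.20. Ifit1, which encodes a protein that binds foreign RNA, had 323 and 55.4 CPM in control cells and 401 and 78.7 CPM in the knockdown library, log2 ratios of 2.55 and 2.35. Ifit3b (2.63 and 2.55) and Ifit3 (1.69 and 1.52) stood in the same direction, but their sequences are near-identical and their separate values are uncertain.

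Isg15, a ubiquitin-like modifier, was abundant outside the members as well. It had 813 CPM in interferon-high and 239 CPM in interferon-low macrophages of the control library and 1111 and 395 CPM in the knockdown library, log2 ratios of 1.77 and 1.49. The dynamin-like antiviral GTPases Mx1 (log2 2.04 and 2.22) and Mx2 (2.07 and 2.39) were each near 30 CPM in interferon-low macrophages and above 120 CPM in members of both libraries, with values of 125 and 144 CPM for Mx1. Other antiviral genes differed less. Bst2, which encodes tetherin, had 1594 and 1691 CPM in members against 1289 and 1531 CPM, log2 ratios of 0.31 and 0.14, and Ifitm3 had log2 ratios of 0.33 and 0.22.

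Of 13 tested sensors and adaptors of nucleic acids 1 was over 2-fold higher in both libraries, the rule gene Ifih1, and their median log2 ratios were 0.53 (control) and 0.48 (knockdown). Rigi, the sister sensor RIG-I, had log2 ratios of 0.53 and 0.07. Ifi204, a DNA-binding interferon-inducible gene, had 235 and 238 CPM in members against 146 and 133 CPM, log2 ratios of 0.69 and 0.83, and its relative Ifi205 had log2 ratios of 1.23 and 0.68. The cytosolic DNA receptor gene Cgas had 27.2 and 24.7 CPM in members against 22.3 and 17.8 CPM, and Sting1, its adaptor, 53.3 and 54.4 against 45.6 and 42.9 CPM. None of the 15 kinases and transcription factors (medians of 0.15 and 0.12) and none of the 10 receptors and signalling genes (medians of 0.11 and 0.22) passed 2-fold in both libraries. The kinase gene Tbk1 had 52.0 and 52.7 CPM in members against 52.0 and 49.9 CPM, and the receptor gene Ifnar1 70.9 and 73.5 against 69.2 and 60.5 CPM.

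The factor genes of the interferon response did not pass 2-fold in both libraries and differed among themselves. Irf7, a transcription factor that amplifies interferon alpha, had 422 and 404 CPM in members against 246 and 260 CPM, log2 ratios of 0.78 and 0.64. Stat2, part of the factor that carries the receptor's signal, had log2 ratios of 0.72 and 0.50, and Irf9, its partner, 0.14 and 0.18. Of 10 tested feedback inhibitors 1 passed 2-fold in both libraries: Usp18, which removes Isg15 from proteins and dampens the receptor, had log2 ratios of 1.33 and 1.10.

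Chemokines and cytokines of the inflammatory program split into raised and unraised genes. Of 16 tested chemokines 4 passed 2-fold in both libraries, Ccl3, Ccl4, Cxcl10 and Cxcl11, and of 12 tested cytokines and mediators 2 did, Tnf and Acod1. Ccl4, a chemokine for T cells and monocytes and the fifth marker given for these cells, had 3795 CPM in interferon-high and 1240 CPM in interferon-low macrophages of the control library, and 4749 and 1440 CPM in the knockdown library. Its log2 ratios were 1.61 (1.58 to 1.65) and 1.72 (1.68 to 1.76). Per cell, Ccl4 had a median of 30.8 UMIs per 10000 in control members (quartiles 12.9 and 56.9) and 38.4 in knockdown members (15.9 and 71.1), against 6.06 and 6.88 in interferon-low macrophages. The groups overlapped, since the highest interferon-low cells reached 189 and 146 UMIs per 10000 and the lowest members had 0.

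Tnf, the tumour necrosis factor gene, had 509 CPM against 203 CPM in control cells and 631 CPM against 213 CPM in the knockdown library. Cxcl10, which draws T cells through CXCR3, had 744 against 262 CPM and 810 against 332 CPM. Acod1, the gene of the itaconate-producing enzyme, had log2 ratios of 1.86 and 1.67. Il1b, the interleukin-1 beta gene, did not follow, with log2 ratios of -0.03 and -0.13, nor did the neutrophil chemokine gene Cxcl2, with 571 and 422 CPM in members against 592 and 556 CPM. Beside the listed genes, the 20 most raised held Rnd3 (log2 2.36 and 2.46), Ppp1r15a, which encodes GADD34, a phosphatase subunit that restores translation (1.44 and 1.77), Slc23a2, an ascorbate transporter gene (1.45 and 1.57), and Plekha4, Trim30c, AW011738 and Art3.

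Antigen presentation genes differed less than 2-fold. None of the 20 class I and none of the 9 class II genes passed it in both libraries. Cd74, the class II invariant chain gene, had 15616 CPM in interferon-high and 11804 CPM in interferon-low macrophages of the control library and 18330 and 13842 CPM in the knockdown library, log2 ratios of 0.40 and 0.41. Cd274, which encodes the checkpoint ligand PD-L1, had 240 and 249 CPM in members against 137 and 143 CPM. Of 20 immediate early and heat shock genes 1 passed, Hspa1a, with 554 and 379 CPM against 270 and 184 CPM, and its near-identical copy Hspa1b had log2 ratios of 1.13 and 0.62.

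The count of 5 genes over 2-fold lower in interferon-high macrophages depended on the settings, with 121 when members had at least 10 rule UMIs per 10000 and 32 with a minimum of 30 UMIs. None of the 20 tested complement and lipid-associated genes was among the 5, and the list's median log2 ratios were 0.05 and 0.13. Within that list and short of 2-fold in both libraries, Fabp5, a fatty acid-binding protein gene, had 268 and 339 CPM against 435 and 562 CPM, and Gpnmb, a gene of lipid-laden macrophages, 19.1 and 19.9 against 47.7 and 36.6 CPM. Members held 1.55% and 2.48% of Fabp5 UMIs and 1.38% and 3.09% of Gpnmb UMIs, against 3.65% and 5.54% of all UMIs. The 19 tested glycolysis and hypoxia genes had median log2 ratios of -0.29 and -0.36, and none passed 2-fold in both libraries. The 5 lower genes were Ptn, Ppic, Tex101, Dclk1 and Npdc1, and the next 5 by the smaller of both differences were Nnmt, Gpx8, Tead1, Col6a1 and Scd2. Ptn, a secreted growth factor gene, had 61.0 and 45.8 CPM in members against 156 and 110 CPM. Fibroblast markers moved with these genes (340.1 and 484 CPM in members, 604 and 906 CPM in interferon-low macrophages). So did the sums of tumour markers (35.8 and 52.9 against 45.2 and 81.8 CPM) and monocyte markers (157 and 121 against 227 and 209 CPM). Endothelial markers stood the other way (20.7 and 42.0 against 13.1 and 20.1 CPM). Glycolysis and hypoxia genes summed to 12320.5 and 12159.7 CPM in gated tumour cells, against 6305.6 and 6744.6 CPM in members. The part of other cells' RNA in the lower genes was not tested.

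**Figure D2:**
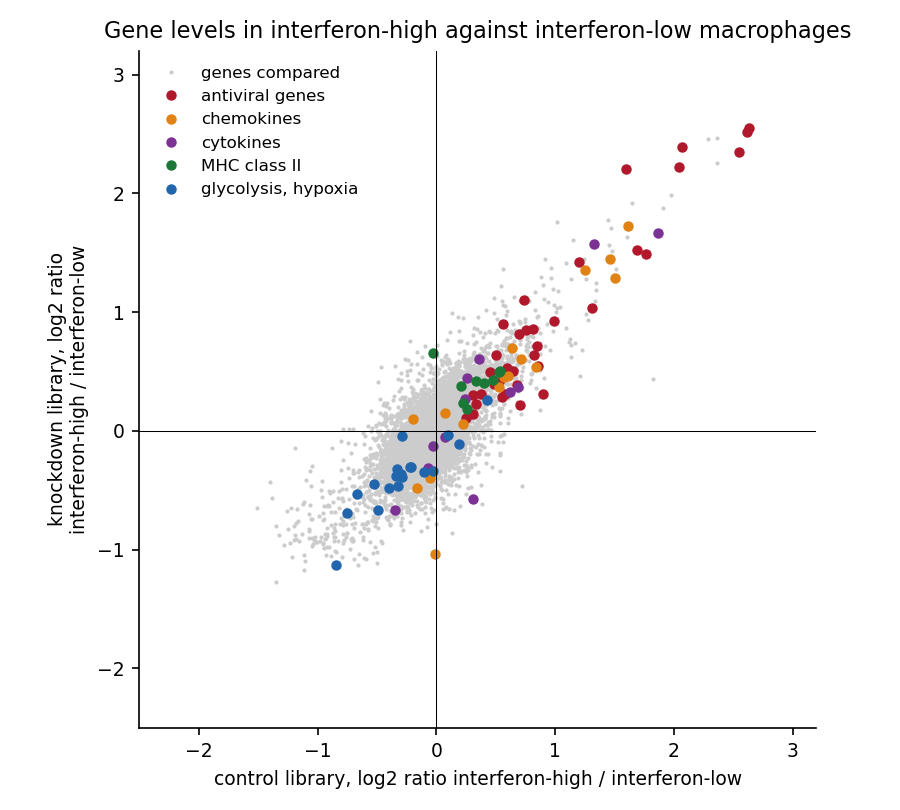
Log2 ratio of CPM in interferon-high over interferon-low macrophages for each gene compared, control library on the horizontal and knockdown library on the vertical axis; grey dots are all genes except those of the rule and coloured dots the listed groups. Antiviral genes (red), with Rsad2 at 2.61 and 2.51, and chemokines (orange), with Ccl4 at 1.61 and 1.72, reach the upper right, while glycolysis and hypoxia genes (blue) lie mostly below 0 in both libraries.

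Within the members, the level of many genes outside the rule differed with the summed rule genes. Cells were divided into those at 5 to 10, 10 to 20, 20 to 40 and 40 or more rule UMIs per 10000, with 328, 336, 255 and 114 control cells and 418, 500, 501 and 295 knockdown cells. Rsad2 had 230.2, 441, 788 and 1389 CPM over these steps in the control and 311, 485, 836 and 1261 CPM in knockdown cells. Ccl4 had 2570, 3617, 4805 and 6018 CPM in control cells and 2712, 3850, 6051 and 7617 CPM in knockdown cells. Both genes were higher at each step. Ppp1r15a had 292 CPM in the lowest and 1153 CPM in the highest step of the control library and 384 and 1284 CPM in the knockdown library, and Rnd3 had 33.5 and 241 CPM and 49.7 and 265 CPM.

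Other genes did not rise at each step. Il1b lay between 171 and 218 CPM in control cells and between 203 and 258 CPM in the knockdown library, with no steady order. Cxcl9 had 599, 744, 1038 and 987 CPM over the steps in the control library and 365, 557, 632 and 521 CPM in the knockdown library, so that its highest step lay above the lowest and below the third in both. Fabp5 had 337 CPM in the lowest and 163 CPM in the highest step of the control library and 487 and 205 CPM in the knockdown library. Gapdh, a glycolytic enzyme gene, had 2430 and 1840 CPM and 2753 and 1959 CPM. Col3a1 was lower toward the high steps as well, with 453, 141, 59.0 and 59.4 CPM in control and 565, 310.1, 176 and 97.7 CPM in knockdown cells, and Dcn went from 229 to 35.6 CPM and from 303 to 38.2 CPM. The part of such RNA in the lower Fabp5 and Gapdh levels was not tested. Cells of the highest step had a median of 4752.5 UMIs (control) and 3482 (knockdown), below the medians of the 3 lower steps.

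**Figure D3:**
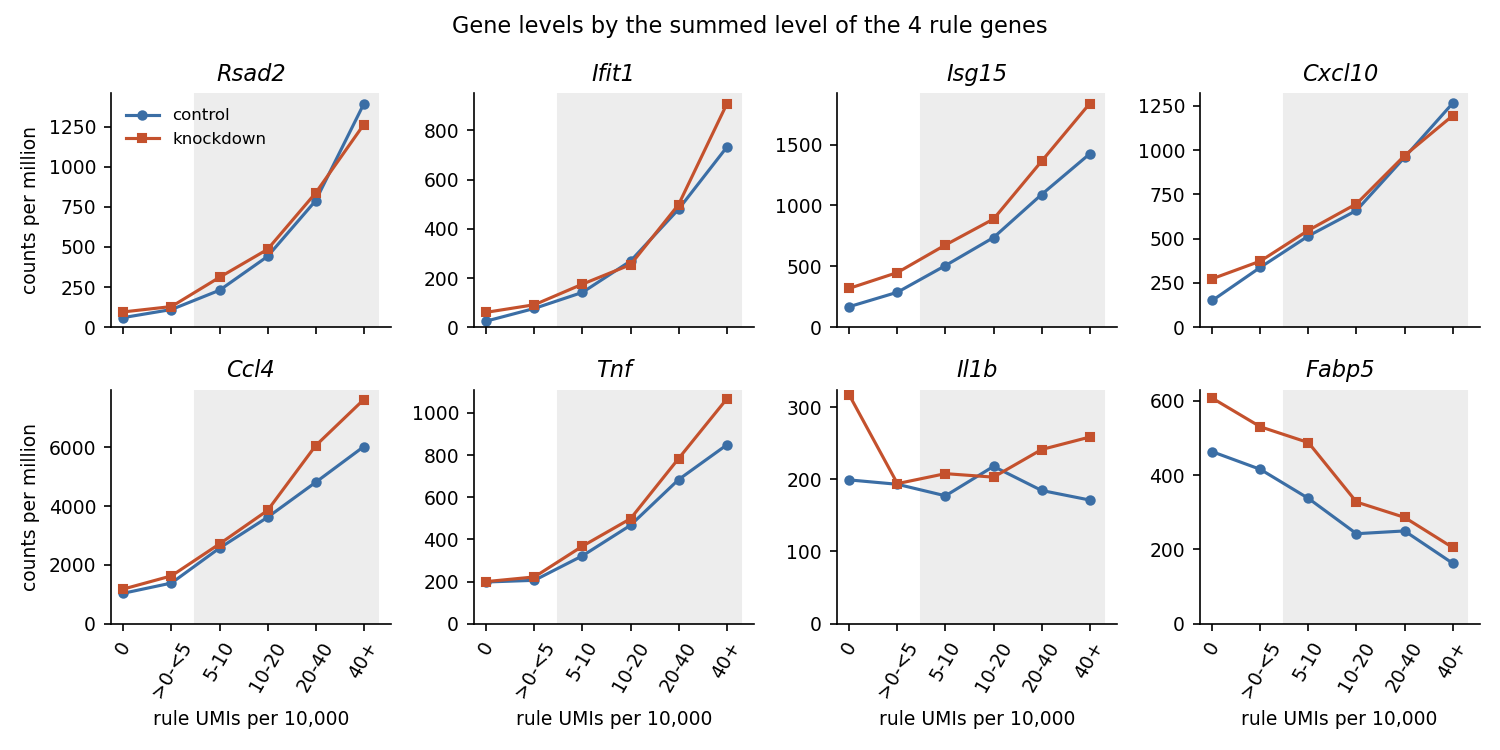
CPM of 8 genes (vertical axes, linear from 0) in interferon-high and interferon-low macrophages, by the summed level of the 4 rule genes per 10000 UMIs (horizontal axes), control in blue circles and knockdown in red squares; the shaded steps are interferon-high macrophages. Rsad2, Ifit1, Isg15, Cxcl10, Ccl4 and Tnf climb over the shaded steps in both libraries, Il1b has no steady order and Fabp5 is lowest in the highest step.

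Members with an Ifnb1 UMI were compared with members without one. The cells with it were deeper (medians of 6388 against 5314.5 UMIs in control cells and 4936 against 3746 UMIs in the knockdown library), so detection of Ifnb1 and depth cannot be told apart, and the levels below are CPM. Ifit1 had 605 CPM in control cells with Ifnb1 and 262 CPM without, and 558 and 347 CPM in the knockdown library, log2 ratios of 1.21 and 0.69. Ccl4 had 5552 against 3412 CPM and 5785 against 4393 CPM. Ccl5, a T cell chemokine gene, had log2 ratios of 0.85 and 0.54, and Rnd3 1.20 and 0.74. Fibroblast markers moved with these genes: Col3a1 had 380 against 181 CPM in control cells and 339 against 295 CPM in the knockdown library, log2 ratios of 1.07 (0.90 to 1.24) and 0.20 (0.07 to 0.33). Dcn had 198 against 99.1 CPM and 203 against 146 CPM. Their part in the differences with Ifnb1 was not tested.

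Other genes differed less or were lower in cells with Ifnb1. Ifnb1 is a rule gene, and members without it had to reach the rule's level through Oasl1, Ifih1 and Ifit2, so this contrast is a description conditioned on the rule. Irf7 had log2 ratios of -0.07 (-0.22 to 0.08) and 0.03 (-0.09 to 0.14), and Cxcl9 0.11 (0.00 to 0.21) and 0.05 (-0.05 to 0.15). Among the monocyte markers, F13a1, Plac8 and Ly6c2 had lower CPM in cells with Ifnb1 in both libraries, F13a1 with 15.8 against 39.3 CPM in control cells and 7.17 against 17.9 CPM in the knockdown library. Ccr2 had 44.5 against 42.4 CPM and 17.4 against 27.9 CPM, and Vcan 28.7 against 21.2 CPM and 45.1 against 48.6 CPM. Il6, the interleukin-6 gene, was scarce, with 1.99 and 5.62 CPM over all members, but had 5.56 against 1.21 CPM and 13.8 against 2.81 CPM, log2 ratios of 2.20 (0.30 to 4.10) and 2.30 (1.36 to 3.29).

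The members supplied a larger part of some transcripts than of RNA in general. Ccl4 had 34.6% of its control and 46.9% of its knockdown UMIs in them, Ccl3 32.1% and 44.3%, Tnf 33.0% and 44.6%, and Acod1 34.8% and 43.4%, against 3.65% and 5.54% of all UMIs. Cxcl10 had 7.96% and 8.76% there and Rsad2 14.0% and 19.1%, so most of their UMIs lay in cells that are not members. Apoe, an abundant macrophage gene, had 24.4% and 37.6% of its UMIs in members.

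Between the libraries, 224 of 7462 genes were over 1.5-fold higher in knockdown than in control members (3.0%) and 34 were lower (0.456%), and the median gene had a log2 ratio of 0.03. With cells thinned to 3000 UMIs 103 genes were higher, and with a minimum of 30 UMIs 695 were higher and 152 lower. The minimum of 100 UMIs had to be met in 1 library, and 141 of the 224 met it in the knockdown library alone and 13 of the 34 in the control library alone, so that such genes entered through the library where they were high. Among the list members named below this holds for Tnfsf15, Csf1, Cd80, Hspb1, Egln3 and Pecam1 (higher) and for Chil3, Ly6c2, Lpl, Mcm2 and Tnip3 (lower), and the counts of listed genes that passed are a description. Among the other named genes it holds for Slc15a2, Igfbp7, Fabp4, Hbb-bs, Tafa1, Col4a1, Grm3, Sox9 and Fosl1 (higher) and for Fgf13, Jaml and Atp8b4 (lower). Most of the higher genes were also higher in tumour cells: 171 of the 224 (76.3%) had more than 2-fold higher CPM in gated tumour cells than in members in both libraries, against 1133 of the 7462 (15.2%). Among the 34 lower genes 2 were of that kind. In members without a UMI of Hmga2, Tnfrsf12a and Igf2bp2, a subset chosen after the data were seen, 133 genes were higher and 32 lower. The tumour marker sum moved with these genes, at 35.8 and 52.9 CPM, as did the fibroblast marker sum, at 340.1 and 484 CPM, and the endothelial marker sum, at 20.7 and 42.0 CPM, and their part in them was not tested.

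None of the 38 tested antiviral genes passed 1.5-fold between the libraries. The listed genes Ifit1bl1 (45 UMIs in control and 90 in knockdown members) and Ifit1bl2 (45 and 84) were below the UMI minimum and were not tested. Of the 38 tested, 28 had a log2 ratio above 0, against 4121 of all 7462 genes, and the median was 0.13. The 38 hold Ifit2 and Oasl1, whose levels chose the cells. Isg15 had 813 CPM in control and 1111 CPM in knockdown members, a log2 ratio of 0.45 (0.40 to 0.50), and the ratio was 0.73 in interferon-low macrophages. Mx2 had 122 and 168 CPM, a log2 ratio of 0.46 (0.33 to 0.60). Rsad2 (0.26, 0.19 to 0.32) and Ifit1 (0.31, 0.23 to 0.39) stood above 0 as well, while Oas1g (-0.45) and Ifi211 (-0.23) stood below. At equal steps of the rule genes Isg15 had 676, 888, 1363 and 1836 CPM in knockdown cells against 506, 736, 1090 and 1423 CPM in control cells, and so was higher at all 4 steps. Rsad2 was higher in the knockdown library at the 3 lower steps and lower at 40 or more (1261 against 1389 CPM), and Ifit1 was lower at 10 to 20 (254 against 269 CPM) and higher at the other steps.

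Chemokine genes stood in both directions. Ccl4 had a log2 ratio of 0.32 (0.30 to 0.35) and Ccl3 of 0.26 (0.19 to 0.33), and Tnf had 0.31 (0.24 to 0.37). Cxcl9 was the chemokine past 1.5-fold, with 792 CPM in control and 524 CPM in knockdown members, a log2 ratio of -0.60 (-0.66 to -0.54), and with -0.29 in interferon-low macrophages. Cxcl9 lay close to that threshold and did not pass it with cells thinned to 3000 UMIs (-0.52), without top-ranked doublets (-0.57), without Ifit2 in the rule (-0.55) or in members without a tumour-marker UMI (-0.49). A Cxcl9 UMI was found in 55.6% of control and 44.9% of knockdown members, but the latter were shallower (medians of 5489 and 4016 UMIs), which also lowers detection. Ccl8, a monocyte chemokine gene, went from 1751 to 1191 CPM (-0.56), Ccl12 from 1552 to 1215 CPM (-0.35) and Cxcl2 from 571 to 422 CPM (-0.43). Of 15 tested cytokine genes 2 passed in the higher direction, Tnfsf15 (8.45 and 14.8 CPM) and Csf1 (11.4 and 19.0 CPM), as did 3.0% of all 7462 genes.

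The inhibitor and heat shock lists held few changed genes. Over all 7462 genes 3.0% passed in the higher and 0.456% in the lower direction. Tnip3, an NF-kB inhibitor gene, had 17.2 CPM in control and 9.94 CPM in knockdown members (-0.79), and no other feedback inhibitor passed. Hspa1b went from 332 to 216 CPM (-0.62) and Hspb1, a small heat shock protein gene, from 8.62 to 18.4 CPM (1.10). None of the sensors, kinases and factors, or receptor genes passed 1.5-fold, with medians of 0.00, 0.02 and 0.02, and none of the class I and class II genes did. Of 13 costimulation and checkpoint ligands 1 passed, Cd80 (11.4 to 17.3 CPM), and none of 20 cell death and inflammasome genes did. Of 22 genes associated with interferon gamma 1 passed, Cxcl9 in the lower direction. Cd74 had a log2 ratio of 0.23 (0.22 to 0.24).

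Some monocyte and resident-type genes passed in the lower direction, where 0.456% of all 7462 genes did, with 3.0% in the higher. Of 5 tested monocyte markers 3 passed in the lower direction, Ly6c2 (24.5 to 8.50 CPM), Ccr2 (42.7 to 25.2 CPM) and F13a1 (35.1 to 15.2 CPM), and 1 in the higher, Vcan (22.5 to 47.7 CPM), which had 227 and 247 CPM in cells gated as tumour cells. In interferon-low macrophages without a rule UMI, Ly6c2 went from 35.4 to 19.9 CPM, Ccr2 from 52.2 to 37.7 CPM and F13a1 from 60.7 to 41.3 CPM. Of 12 tested alternative activation and resident genes 3 were lower, Chil3, Folr2 and F13a1, which is in both lists, while 9 did not pass, and the median was -0.26. Chil3, a chitinase-like gene, had 147 UMIs in 27 control members and 3 UMIs in 3 knockdown members, a log2 ratio of -5.96 (-8.25 to -4.38), and a ratio of -4.33 in interferon-low macrophages. Folr2, the folate receptor beta gene, had a log2 ratio of -1.01 (-1.39 to -0.65) in members, against 0.16 (-0.25 to 0.58) in interferon-low macrophages. The differences between these ratios were not tested.

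Lipid, hypoxia and cell cycle genes were compared as well, beside shares over all 7462 genes of 3.0% higher and 0.456% lower. Spp1, the osteopontin gene, went from 359 to 204 CPM (-0.81, -0.91 to -0.72) and Lpl, the lipoprotein lipase gene, from 22.7 to 9.41 CPM (-1.27), 2 of 21 tested complement and lipid-associated genes. Without members that held a tumour-marker UMI the Spp1 ratio was -0.47, below 1.5-fold. Vegfa, the vascular growth factor gene, had 48.4 CPM in control and 107 CPM in knockdown members, a log2 ratio of 1.15 (0.96 to 1.35), and had 1.01 in interferon-low macrophages. With Egln3 (0.78) it made 2 of 19 glycolysis and hypoxia genes. Both genes were at higher levels in tumour cells than in control members, with Vegfa at 149 and 167 CPM there. Cell cycle genes had a median log2 ratio of -0.32 over 17 tested, and Ube2c (-0.63) and Mcm2 (-0.60) passed.

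Several genes with the largest ratios between the libraries had most of their UMIs in few cells or were higher in tumour cells. Slc15a2, a peptide transporter gene, had 2 UMIs in control and 180 UMIs in 122 cells in knockdown members, a log2 ratio of 6.15 (4.28 to 9.21), and it was also 13.6 CPM in knockdown T cells and 0 in control T cells. Igfbp7 had 4 and 138 UMIs, but 3 knockdown cells held 119 of the 138. Ctla2a had 100 and 399 UMIs, of which 3 knockdown cells held 232, and Hbb-bs, a haemoglobin gene, 36 and 231. The endothelial markers were also higher, Pecam1 with 98 and 233 UMIs, Cdh5 with 6 and 34, Emcn with 1 and 22 and Kdr with 20 and 32, and Pecam1, the marker of the list with enough UMIs, passed 1.5-fold (0.91). Tafa1, Col4a1, Grm3, Sox9 and Fosl1 had log2 ratios between 1.63 and 2.07, and each was higher in tumour cells than in members, as with Sox9 at 130.3 and 155 CPM there and 6.63 and 22.7 CPM in members. With cells thinned to 3000 UMIs the Tafa1 ratio was 0.99 and the Fosl1 ratio 0.77, and Fosl1 was at 0.97 in members without a tumour-marker UMI. Fabp4 had 2.15 and 13.7 CPM in members and 25.1 and 66.6 CPM in tumour cells. Lower genes beside those above were Crip1 (142 to 70.3 CPM), Fgf13, Jaml and Atp8b4, with log2 ratios of -1.01, -1.25, -0.87 and -0.82.

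**Figure D4:**
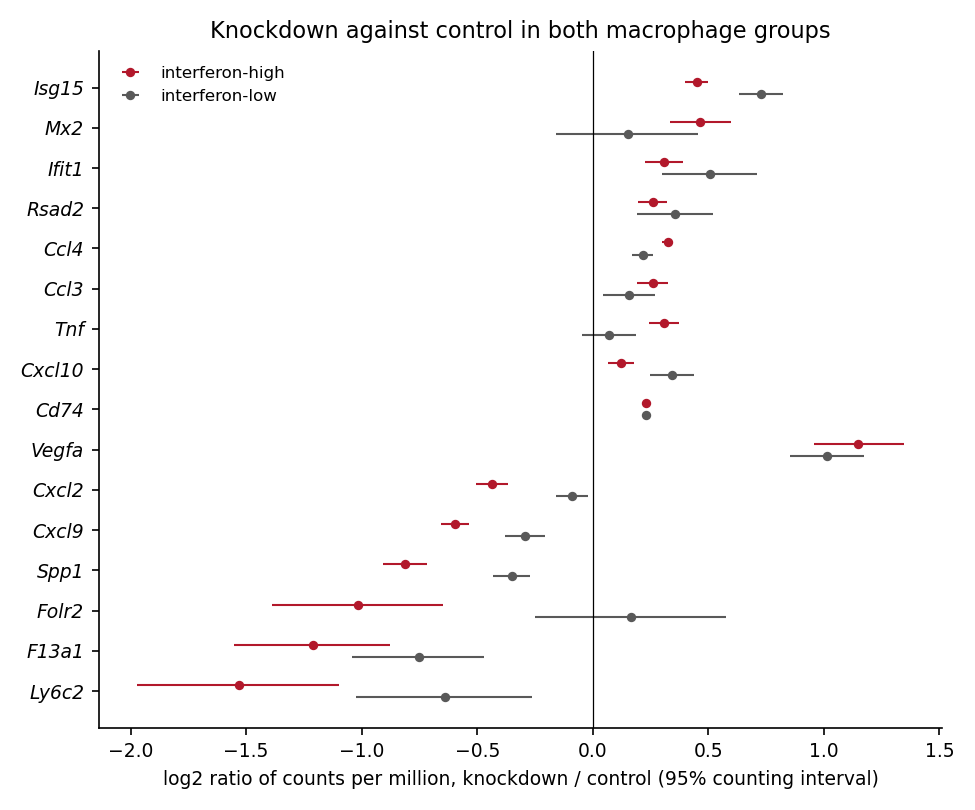
Log2 ratio of CPM, knockdown over control (horizontal axis), for 16 genes within interferon-high (red) and interferon-low (grey) macrophages; bars are 95% intervals of counting error with 1 library per group. Isg15 lies above 0 and Cxcl9 below 0 in both groups, and Folr2 is at -1.01 in interferon-high macrophages while its interval in interferon-low macrophages includes 0.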

How the data were processed

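Per the file headers, the authors deposited raw UMI counts, a gene-by-cell matrix for each library, from Cell Ranger 6.1.0, whereas the submitters' processing notes name version 3.1.0; the genome build and annotation are not given in the sources used here. Cells with at least 500 genes and at most 20% mitochondrial UMIs were kept. Counts were summed over the cells of a group and library and scaled to CPM, with exact Poisson and conditional binomial intervals. Intervals of this kind were tried on simulated Poisson counts. That trial cannot show how they hold where few cells carry most UMIs of a gene. Genes needed at least 100 UMIs in 1 of the groups compared. Python 3.11.15, numpy 2.4.6, scipy 1.17.1, pandas 2.3.3 and scanpy 1.11.5 were used. Doublets were not removed, as the rule has no such step; Scrublet's top-ranked cells were removed in an alternative. Named genes were the 5 markers, members of 28 lists, the 20 highest and 10 lowest smaller-of-both-libraries ratios to interferon-low macrophages, and the 10 highest and 10 lowest library ratios, without the rule's genes and models lacking a symbol. A further limit of the rule, which members and interferon-low macrophages both passed, is not reported here. Members and lists were chosen with earlier results of these data known. The alternatives covered the rule's thresholds, doublets, depth, scaling (edgeR 4.0.16) and the UMI minimum.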

Additional observations from a re-analysis of the deposited data

How the results depend on the processing

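No paired analysis was possible because each group has 1 library and the labels give no replicate numbers. The share ratio of 1.61 became 1.78 at 10 rule UMIs per 10000 and 1.47 with cells thinned to 3000 UMIs. Among interferon-high and interferon-low macrophages alone it was 1.34 (1.25 to 1.45). The 224 genes higher in the knockdown library became 103 after thinning, 695 with a minimum of 30 UMIs, 2583 with no minimum beyond 1 UMI in each library, and 133 in members without a tumour-marker UMI, a setting chosen after seeing the data. The 34 lower genes became 152 and 1292 with those 2 minimums. Against interferon-low macrophages, the 5 lower genes became 3 without the top-ranked doublets, 121 at 10 rule UMIs per 10000 and 32 with a minimum of 30 UMIs, which also turned the 45 higher genes into 77. The cause of these shifts was not tested, except that lower minimums admit more genes. Over 44 single genes and 11 settings that can change a gene's own ratio, 418 of 481 log2 ratios stayed within the counting interval, 63 moved and 0 reversed among values whose interval excluded 0. Thinning to 3000 UMIs moved 16 of the 44 genes, and each other setting at most 8. Saa3, with 12 and 7 UMIs and an interval that included 0, changed sign from -1.12 to 1.51 at 10 rule UMIs per 10000 and 1.47 without Ifit2 in the score. Cxcl9 fell short of 1.5-fold in 4 settings (-0.57 to -0.49), Spp1 in members without a tumour-marker UMI (-0.47) and Atp8b4 with cells weighted equally (-0.56). Tafa1 lay between 0.95 and 3.09 over the settings. With TMM scaling, which shifted all ratios by -0.04, 200 genes were higher and 46 lower. Depth limits the rarest transcripts, such as those of interferon alpha genes.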

Other observations

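Several of the genes raised in interferon-high macrophages are neighbours in RefSeq's mouse gene order. Rsad2 and Cmpk2 lie next to each other, as do Ppp1r15a and Plekha4, while Ifit1, Ifit3 and Ifit3b lie close together beside the rule gene Ifit2. Isg15 and AW011738 have 1 gene between them, and Mx1 and Mx2 have 2. Art3, an ADP-ribosyltransferase gene, overlaps Cxcl10 and Cxcl11 and lies on the strand opposite to Cxcl10. Whether the counting used strand is not given in the sources used here. It is therefore not known whether reads of Art3 were kept apart from reads of these genes. Art3 had 54.7 CPM in control and 56.2 CPM in knockdown members, against 19.6 and 19.7 CPM in interferon-low macrophages. Scrublet ranked 25 of 1033 control members (2.42%) and 138 of 1714 knockdown members (8.05%) among its top candidates for doublets, against 67 (5.47%) and 131 (12.2%) interferon-low macrophages.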
